A study of Mus musculus with 9 samples.

Results

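The 31 genes described here are genes by which astrocytes are recognised or through which they carry out their functions, and they were chosen by gene symbol from a list. All 31 were found among the 24532 genes measured in every mouse. RNA from the medial prefrontal cortex (mPFC) of 9 male mice of the C57BL/6 strain, labelled as 11 weeks old, was sequenced with 1 library per mouse. The study compared 3 wild-type mice without stress (CT), 3 wild-type mice after chronic restraint stress (WT_ST) and 3 Fkbp5-/- mice after the same stress (KO_ST). By the methods of the study, stress was restraint for 6 h a day over 21 days, and all mice went without food and water during those hours, the CT mice included. The knockout is not restricted to a cell type, had been backcrossed to C57BL/6J for 10 generations, and is present here only with stress, so in KO_ST against CT the effects of genotype and stress cannot be told apart. Sequencing depth, as reads assigned to genes, lay between 43778471 and 61150128 per mouse. Fkbp5, the targeted gene, had an FPKM (a level scaled to transcript length and to the mapped fragments of the library) of 6.46 to 7.61 in CT, 9.47 to 10.3 in WT_ST and 3.60 to 4.69 in KO_ST. Its 3 groups did not overlap, and KO_ST was the lowest of them.

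Astrocytes take up glutamate released at synapses, turn it into glutamine, buffer potassium and water, and supply neurons with fuel. They are coupled to each other by gap junctions and wrap blood vessels with endfeet, where water channels are concentrated. Under injury or inflammation they become reactive, which is usually read from intermediate filaments such as Gfap and from secreted acute-phase proteins such as Serpina3n and Lcn2. Loss of astrocyte markers in the frontal cortex is a long-standing topic of research on stress and depression. Fkbp5 itself encodes a co-chaperone that lowers the sensitivity of the glucocorticoid receptor, and astrocytes are among the cells that carry this receptor.

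The promoters of 4 genes whose expression was called lower in WT_ST than in CT are shown, because these genes moved in the same direction in 1 comparison. The promoter of Aqp4, the fifth gene called lower there, is not shown here. Each sequence is the 250 bases before the start of the gene in RefSeq (GRCm38.p6), read 5′ to 3′ on the gene's own strand. The promoter of Slc1a3, a glutamate transporter, lies at chr15:8710808-8711057 on the minus strand, and that of Plpp3, a lipid phosphate phosphatase, at chr4:105157097-105157346 on the plus strand. Mfge8, which encodes a secreted protein that bridges cells to phagocytes, has its promoter at chr7:79149061-79149310 on the minus strand. Id3, an inhibitor of transcription factors of the basic helix-loop-helix family, has its promoter at chr4:136143572-136143821 on the plus strand. Capitals mark a match to TTCNNNGAA, the palindrome bound by STAT factors.
Slc1a3: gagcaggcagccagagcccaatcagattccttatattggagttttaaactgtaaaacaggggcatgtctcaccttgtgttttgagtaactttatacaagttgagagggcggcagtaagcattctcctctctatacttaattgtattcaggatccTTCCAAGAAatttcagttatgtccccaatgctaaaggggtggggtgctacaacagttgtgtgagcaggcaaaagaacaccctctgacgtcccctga
Plpp3: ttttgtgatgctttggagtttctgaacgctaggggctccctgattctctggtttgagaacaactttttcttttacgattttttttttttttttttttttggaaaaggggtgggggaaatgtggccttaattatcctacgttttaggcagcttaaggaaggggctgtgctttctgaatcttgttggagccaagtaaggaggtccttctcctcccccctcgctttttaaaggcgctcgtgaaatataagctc
Mfge8: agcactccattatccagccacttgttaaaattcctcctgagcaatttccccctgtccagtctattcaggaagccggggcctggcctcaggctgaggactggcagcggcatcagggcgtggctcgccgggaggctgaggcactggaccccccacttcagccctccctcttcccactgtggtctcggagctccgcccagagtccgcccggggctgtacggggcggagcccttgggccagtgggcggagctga
Id3: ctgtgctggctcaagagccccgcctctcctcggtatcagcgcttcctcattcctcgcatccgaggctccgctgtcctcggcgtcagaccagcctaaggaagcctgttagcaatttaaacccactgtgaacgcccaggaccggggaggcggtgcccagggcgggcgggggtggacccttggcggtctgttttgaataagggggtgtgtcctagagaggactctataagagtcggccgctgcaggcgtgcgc

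A single match to the STAT palindrome was found among these 4 promoters, TTCCAAGAA from 96 to 88 bases before the start of Slc1a3. In all, 27 of the 31 genes were matched to 33 RefSeq promoters. The STAT palindrome, which reads the same on both strands, was in 3 of these promoters, those of Slc1a3, Aldoc and Ntsr2, and in 7.02% of all 32851 promoters of the same length. The glucocorticoid receptor palindrome GNACANNNTGTNC was in 1 of them, that of Serpina3n, and in 0.387% of all promoters. That match, GCACAGCTTGTCC, lay from 78 to 66 bases before the start of Serpina3n in the promoter table. That start lies within the annotated span of the gene, so the whole window is not printed. The nuclear factor I palindrome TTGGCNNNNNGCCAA was in none of the 33 and in 0.0365% of all promoters. Both strands were searched, no promoter of the 31 genes held more than 1 of the motifs, and a match is only a run of letters.

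Levels of the 31 genes differed widely. Averaged over the 9 mice, the most abundant was Glul (glutamine synthetase) at an FPKM of 411, followed by Clu (clusterin, a secreted chaperone) at 323, Aldoc (aldolase C, an enzyme of glycolysis) at 265 and Slc1a2 (the main glutamate transporter of the forebrain) at 227. At the other end stood Sox9, a transcription factor of the astrocyte lineage, at 4.83, and Lcn2, a secreted iron-scavenging protein, at 0.725. The defining astrocyte markers Aqp4, Gfap, Slc1a2, Slc1a3, Aldh1l1, Gja1, Aldoc and Sox9 were all detected in all 9 mice, and Lcn2 was the only one of the 31 at 0 in any mouse. Lcn2 aside, Acsl6 varied least, with the highest mouse 1.13 times the lowest, and Slc4a4 varied most at 2.55 times. Aqp4 at 2.15, Serpina3n at 2.07 and Gfap at 2.07 times followed.

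**Figure D1:**
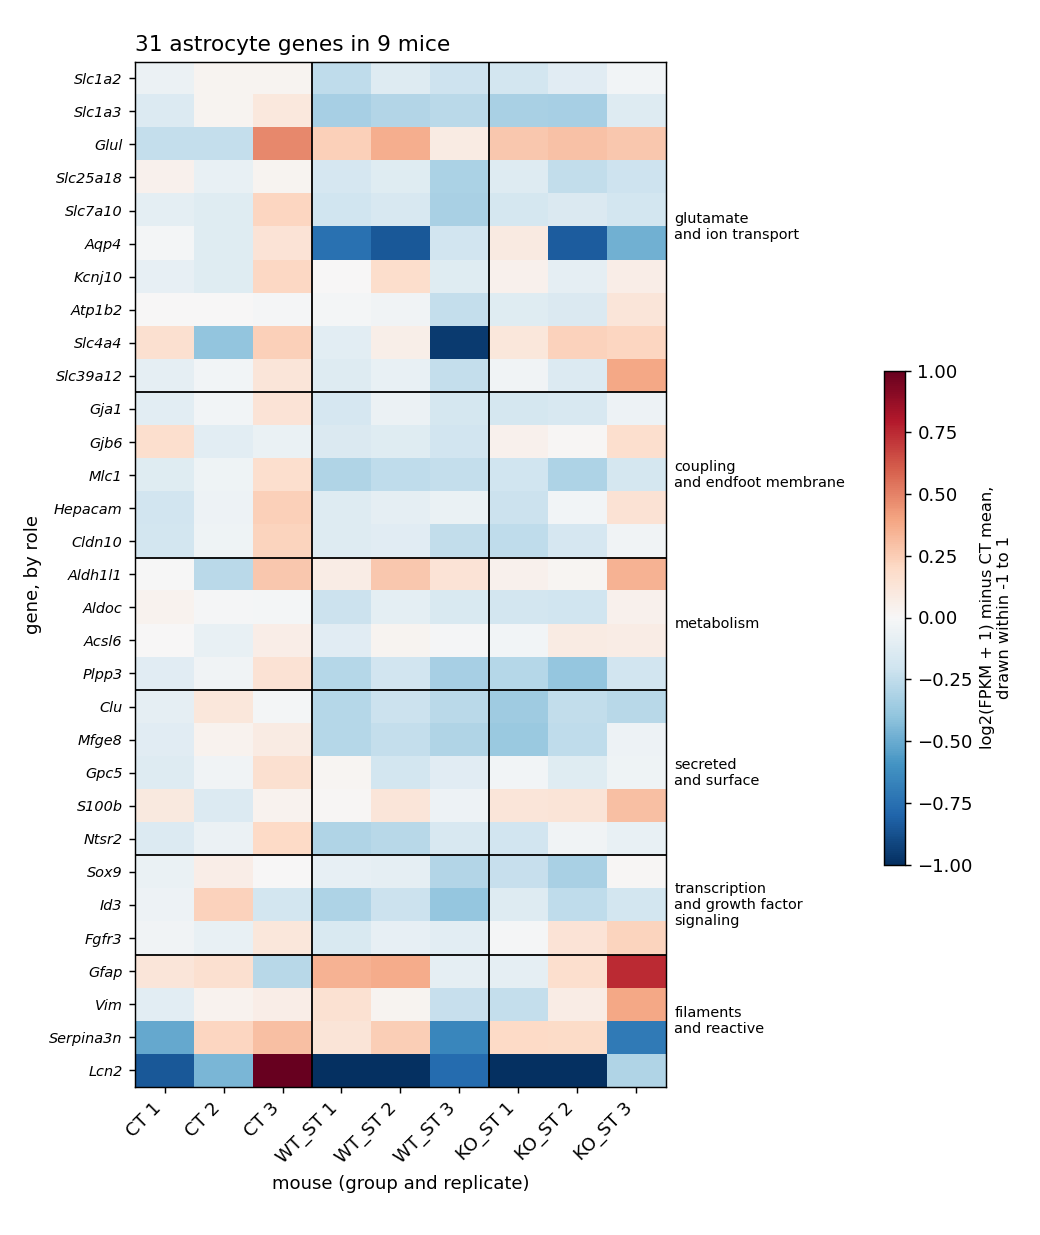
Each row is 1 of the 31 astrocyte genes, grouped by role, and each column is 1 mouse, with colour giving quantile-normalized log2(FPKM + 1) minus the mean of the 3 CT mice, drawn within -1 to 1. Most rows are blue in the WT_ST columns, CT replicate 3 is red in most rows, and Lcn2 exceeds the colour range in several mice.

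Fold changes are given as log2 differences of quantile-normalized log2(FPKM + 1), which understates the change of genes at low FPKM, and a gene was called when limma gave an unadjusted p under 0.05 and the fold change exceeded 1.2. In WT_ST against CT, the comparison of stress within wild-type mice, 5 of the 31 genes were called, and all 5 were lower after stress. They were the water channel gene Aqp4, the glutamate transporter gene Slc1a3, Id3, Mfge8 and Plpp3. The tissue was measured in bulk, so fewer astrocytes and less RNA per astrocyte cannot be told apart. Over all 14370 genes tested, 2.47% were called and 1.32% were called lower. Differences below 0 on the log2 scale were found for 26 of the 31 genes with a median of -0.15, against 48.69% of all genes and a median of 0.0034. No astrocyte gene passed an adjusted p of 0.05 in limma, which 0.0348% of all genes did, and 11 had an unadjusted p under 0.05, as did 7.86% of all genes. By edgeR on the counts none passed the adjusted threshold, and by DESeq2 1 did, Slc1a3, with an adjusted p of 0.0267. DESeq2 passed 0.501% of all genes. Without CT replicate 1, 9 astrocyte genes were called (against 3.69% of all genes), without WT_ST replicate 1 it was 3 (against 2.35% of all genes), and the unmoderated test called 3 (against 1.14% of all genes).

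For 16 of the 31 genes the 3 WT_ST mice lay wholly below the 3 CT mice on the quantile-normalized scale, and for none were they wholly above. Over all genes, the groups did not overlap for 14.0%, and WT_ST lay wholly below CT for 6.46%. Microglia markers moved as well. Of 10 microglia markers, 9 were called lower in WT_ST and their summed FPKM was 200 to 252 in CT and 159 to 183 in WT_ST. Of 10 neuron markers 0 were called and 9 had a log2 difference above 0, with summed FPKM of 3592 to 4037 in CT and 4059 to 4340 in WT_ST. All of the 10 markers of either list were detected in every mouse, and the part of cell composition in the lower astrocyte genes was not tested.

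**Figure D2:**
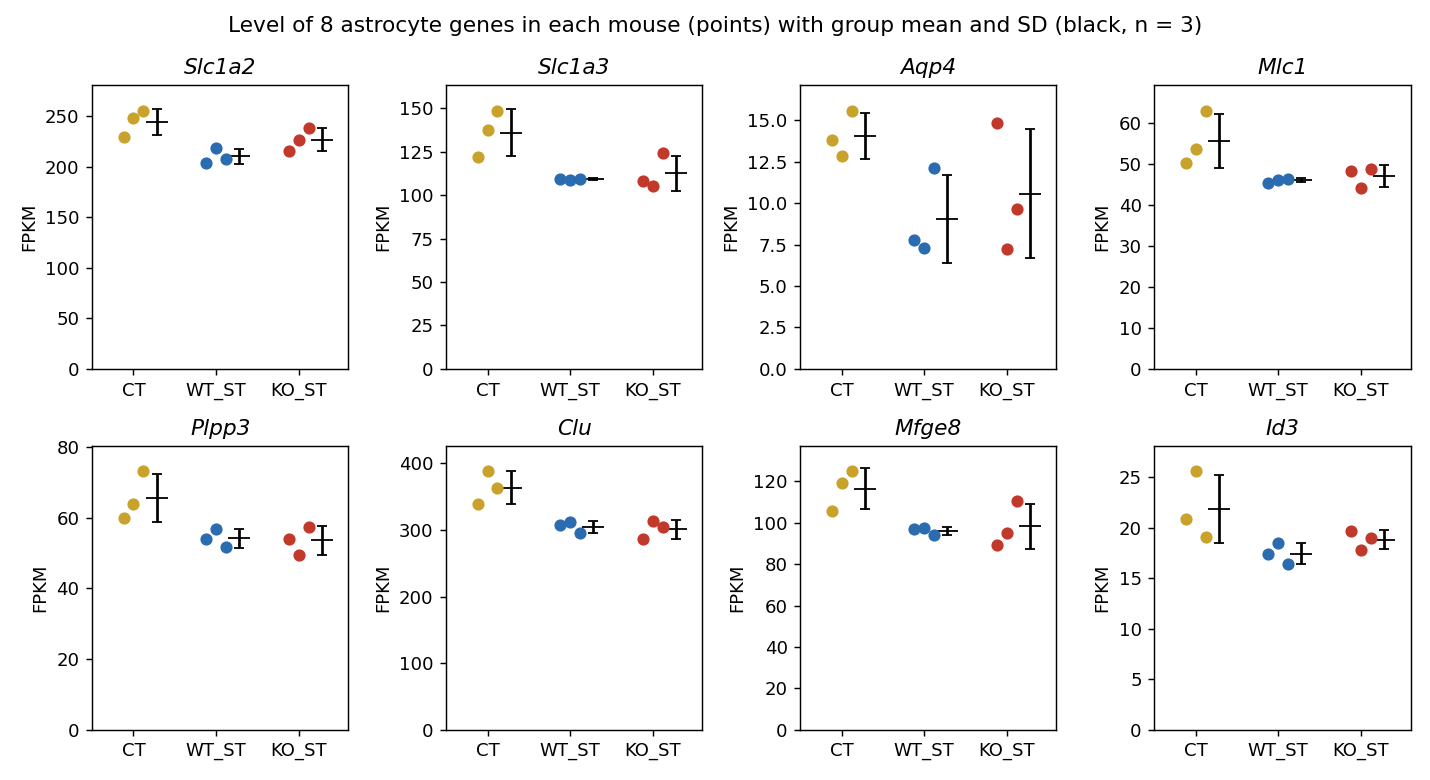
FPKM of 8 astrocyte genes in each mouse (coloured points, in replicate order within each group), with the group mean and SD in black (n = 3). For all 8 genes the WT_ST points lie below the CT points, and for Plpp3, Clu and Mlc1 the KO_ST points do so as well.

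Glutamate and ion transport was represented by 10 genes, of which 2 were called lower in WT_ST against CT (against 1.32% of all genes) and 8 had a log2 difference below 0 (median -0.20). Slc1a3 (GLAST, chr15:8634124-8710807 in GRCm38) had an FPKM of 122, 137 and 149 in CT, 109.6, 109 and 109.5 in WT_ST and 108, 105 and 124 in KO_ST. The WT_ST mice were close to each other and lay below every CT mouse, while KO_ST replicate 3 overlapped the CT range. The group means were 136 ± 13.4 in CT, 109 ± 0.339 in WT_ST and 113 ± 10.1 in KO_ST (SD, n = 3 each). The log2 difference of WT_ST against CT was -0.30 (SE 0.0637, limma adjusted p = 0.542). Without CT replicate 3 Slc1a3 stayed below 0 but was no longer called.

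Aqp4 (chr18:15389394-15410982), the water channel of the endfeet, had an FPKM of 13.8, 12.8 and 15.6 in CT, 7.77, 7.32 and 12.1 in WT_ST and 14.8, 7.24 and 9.66 in KO_ST. WT_ST replicates 1 and 2 stood far below the CT mice and WT_ST replicate 3 just below them, whereas in KO_ST replicate 1 was within the CT range and the other 2 mice below it. Its log2 difference was -0.59 in WT_ST against CT (SE 0.171, limma adjusted p = 0.630), and of 15 alternatives only the unmoderated test did not call it. In KO_ST against CT it was -0.41 (SE 0.213, limma adjusted p = 0.577) and not called, and KO_ST overlapped both other groups. Without KO_ST replicate 1 it was called there too.

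Slc1a2 (chr2:102658239-102790784), the partner of Slc1a3 in glutamate uptake, had FPKM values of 229.7, 248 and 256 in CT, 204, 219 and 208 in WT_ST and 216, 227 and 238 in KO_ST. All WT_ST mice lay below all CT mice, KO_ST lay between and overlapped both, and the log2 difference of -0.20 (SE 0.0465, limma adjusted p = 0.543) did not reach the fold threshold. Slc25a18, a mitochondrial glutamate carrier, had FPKM values of 31.4, 28.8 and 31.4 in CT, 27.1, 27.8 and 24.2 in WT_ST and 27.7, 25.2 and 26.1 in KO_ST. Both stressed groups lay below CT, with log2 differences of -0.20 in WT_ST and -0.19 in KO_ST, and neither was called. The amino acid transporter gene Slc7a10 had FPKM values of 13.9, 13.6 and 17.6 in CT, 12.8, 13.2 and 11.7 in WT_ST and 12.9, 13.1 and 12.9 in KO_ST, and both stressed groups again lay below CT, at log2 differences of -0.23 and -0.17, uncalled.

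The CT mice were themselves split for Glul, which had an FPKM of 303, 295 and 511 in CT, 432, 453 and 374 in WT_ST and 439, 454 and 434 in KO_ST. CT replicate 3 was the highest of the 9 mice and the other 2 CT mice the lowest, so the stressed mice fell between them and the log2 differences of 0.23 in WT_ST and 0.28 in KO_ST had SEs of 0.193 and 0.184. Without CT replicate 3 Glul was called higher in both stressed groups, and in KO_ST its limma adjusted p was 0.0386 at a log2 difference of 0.52. It was the only astrocyte gene past the adjusted threshold in any limma comparison that left out 1 mouse.

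Slc4a4, the sodium bicarbonate cotransporter gene (chr5:88793858-89239656), had FPKM values of 13.5, 8.96 and 14.5 in CT, 11.0, 12.5 and 5.67 in WT_ST and 12.9, 14.0 and 13.9 in KO_ST. CT replicate 2 and WT_ST replicate 3 stood low, and the 3 KO_ST mice were close to each other. Atp1b2, a subunit of the sodium pump, had FPKM values of 118, 121 and 122 in CT, 120.5, 117 and 99.6 in WT_ST and 111, 107 and 132 in KO_ST, where WT_ST replicate 1 fell inside the CT range although the groups separated after quantile normalization at a log2 difference of -0.10. Kcnj10, the potassium channel that takes up potassium from the extracellular space, ranged from 24.9 to 32.0 FPKM over all mice, with log2 differences of 0.02 and 0.01 in WT_ST and KO_ST against CT. Slc39a12, a zinc transporter, ranged from 11.0 to 17.2 FPKM with KO_ST replicate 3 the highest, and it was not called.

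Coupling and endfoot membrane genes numbered 5, and the log2 difference of WT_ST against CT was below 0 for all 5 (median -0.15) without a call. Mlc1 (chr15:88955884-88982693), a membrane protein of the endfeet and the most abundant of the group, had an FPKM of 50.2, 53.7 and 62.9 in CT, 45.4, 46.0 and 46.3 in WT_ST and 48.3, 44.0 and 48.8 in KO_ST. Every stressed mouse of both genotypes lay below every CT mouse. Its log2 difference was -0.26 in WT_ST (SE 0.0744, limma adjusted p = 0.630), just short of the fold threshold of 1.2, and -0.23 in KO_ST (SE 0.0799, limma adjusted p = 0.499). It was called in WT_ST in 8 of 15 alternative settings.

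Gjb6, 1 of the gap junction genes of astrocytes, had FPKM values of 18.7, 15.2 and 15.9 in CT, 14.8, 15.0 and 14.3 in WT_ST and 16.9, 16.4 and 18.6 in KO_ST. WT_ST was lowest and overlapped neither CT nor KO_ST, while CT and KO_ST overlapped. Gja1, the other gap junction gene and the more abundant of the pair, ranged from 38.2 to 48.4 FPKM, and its log2 differences against CT were -0.13 in WT_ST and -0.13 in KO_ST with overlapping groups. Hepacam, an adhesion molecule that binds Mlc1, and Cldn10, a claudin, ranged from 18.2 to 25.5 and from 19.9 to 28.3 FPKM. Both were highest in CT replicate 3 and their groups overlapped in all 3 comparisons.

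Metabolic genes numbered 4, and 1 of them, Plpp3 (chr4:105157347-105232767), was called lower in both comparisons with CT, where 1.32% of all genes were called lower in WT_ST and 2.03% in KO_ST. Its FPKM was 60.0, 63.9 and 73.1 in CT, 54.1, 56.9 and 51.6 in WT_ST and 53.9, 49.4 and 57.4 in KO_ST. All 6 stressed mice lay below all 3 CT mice. The log2 difference was -0.27 in WT_ST (SE 0.0730, limma adjusted p = 0.630) and -0.29 in KO_ST (SE 0.0790, limma adjusted p = 0.472), and without CT replicate 3 it was called in neither. It was also not called in WT_ST without WT_ST replicate 1 or 3, nor in KO_ST without KO_ST replicate 2.

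Aldoc (chr11:78323073-78327781), the most abundant of the metabolic genes, had FPKM values of 283, 272 and 288 in CT, 246, 260.1 and 251 in WT_ST and 250.0, 245 and 294 in KO_ST. WT_ST lay wholly below CT at a log2 difference of -0.15 (SE 0.0421), less than the fold threshold, and KO_ST replicate 3 was the highest of the 9 mice. Aldh1l1, a folate enzyme widely used as an astrocyte marker, ranged from 14.7 to 23.1 FPKM and its log2 difference was above 0 in both stressed groups, at 0.16 and 0.14, uncalled. Without CT replicate 3 it was called higher in WT_ST. Acsl6, which activates long-chain fatty acids, ranged from 48.7 to 55.1 FPKM, with log2 differences of -0.04 in WT_ST and 0.04 in KO_ST against CT.

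Among 5 secreted and surface genes, Mfge8 was called lower in WT_ST (against 1.32% of all genes) and Clu in KO_ST (against 2.03% of all genes). Clu (chr14:65968483-65981548) had an FPKM of 338, 388 and 364 in CT, 307, 313 and 295 in WT_ST and 286, 313 and 304 in KO_ST. All 6 stressed mice lay below all CT mice, and the stressed groups overlapped. The group means were 363 ± 24.7 in CT, 305 ± 9.15 in WT_ST and 301 ± 14.1 in KO_ST (SD, n = 3 each). Clu fell by 0.29 on the log2 scale in KO_ST (SE 0.0633, limma adjusted p = 0.437). In WT_ST the log2 difference of -0.26 (SE 0.0576, limma adjusted p = 0.542) was just short of the fold threshold, so the call in 1 group and not in the other marks no tested difference between them. By edgeR and DESeq2, and by limma without CT replicate 2, Clu was not called in KO_ST.

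Mfge8 (chr7:79133768-79149060) had FPKM values of 106, 119 and 125 in CT, 96.9, 97.3 and 93.9 in WT_ST and 89.2, 95.3 and 110.5 in KO_ST. The WT_ST mice lay below CT and close to each other, and KO_ST replicate 3 reached into the CT range. Its log2 difference was -0.27 in WT_ST (SE 0.0563, limma adjusted p = 0.542) and -0.23 in KO_ST (SE 0.0899, limma adjusted p = 0.501, not called). Without CT replicate 2 or without CT replicate 3, Mfge8 was not called in WT_ST either.

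Ntsr2, a neurotensin receptor gene, had FPKM values of 49.4, 52.8 and 63.8 in CT, 45.1, 44.7 and 48.5 in WT_ST and 48.2, 52.7 and 52.4 in KO_ST, with WT_ST wholly below CT at a log2 difference of -0.25 (SE 0.0892) that was not called. S100b, a calcium-binding protein that astrocytes secrete, had FPKM values of 38.8, 32.9 and 37.6 in CT, 37.2, 39.5 and 34.6 in WT_ST and 39.8, 39.7 and 44.7 in KO_ST. It was the only 1 of the 31 genes for which KO_ST lay wholly above CT, at a log2 difference of 0.19 (SE 0.0770, limma adjusted p = 0.523) that was not called. Gpc5, a heparan sulfate proteoglycan, ranged from 9.36 to 12.4 FPKM with overlapping groups.

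All 3 genes of transcription and growth factor signaling lay wholly lower in WT_ST than in CT (median log2 difference -0.16), and 1 was called, where 6.46% of all genes lay wholly lower and 2.47% were called. Id3 (chr4:136143822-136145392) had FPKM values of 20.9, 25.6 and 19.1 in CT, 17.4, 18.4 and 16.4 in WT_ST and 19.6, 17.8 and 18.9 in KO_ST. CT replicate 2 stood above the rest, the WT_ST mice were below all CT mice, and KO_ST overlapped CT. The log2 difference was -0.30 in WT_ST (SE 0.106, limma adjusted p = 0.635) and -0.19 in KO_ST (SE 0.103, limma adjusted p = 0.590). Without CT replicate 2, WT_ST replicate 1 or WT_ST replicate 3, and by the unmoderated test, Id3 was not called in WT_ST.

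Sox9 had FPKM values of 5.03, 5.59 and 5.44 in CT, 4.83, 4.91 and 4.13 in WT_ST and 4.28, 3.93 and 5.31 in KO_ST, with log2 differences of -0.16 in WT_ST and -0.18 in KO_ST against CT. KO_ST replicate 3 was within the CT range, and the other 5 stressed mice were below it. Fgfr3, a fibroblast growth factor receptor gene expressed in the astrocyte lineage, had FPKM values of 23.7, 23.1 and 26.8 in CT, 22.1, 22.8 and 22.4 in WT_ST and 24.1, 26.7 and 28.6 in KO_ST. Its order of groups was different, with WT_ST below both CT and KO_ST without overlap and a log2 difference of KO_ST against CT of 0.12, uncalled.

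Of the 4 genes of filaments and the reactive state, all tested, 0 were called and 0 were without overlap in any comparison. With 2.47% of all genes called in WT_ST against CT, a count of 0 among 4 is near the background. Gfap, the filament protein of astrocytes, had FPKM values of 22.9, 23.4 and 17.3 in CT, 27.2, 27.4 and 19.8 in WT_ST and 19.6, 23.4 and 35.7 in KO_ST. KO_ST replicate 3 was the highest and CT replicate 3 the lowest, and the log2 differences against CT were 0.21 in WT_ST (SE 0.159) and 0.27 in KO_ST (SE 0.217). Without WT_ST replicate 3 it was called higher in WT_ST. Vim, a second filament gene shared with vascular cells, ranged from 13.5 to 21.6 FPKM, again highest in KO_ST replicate 3.

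Serpina3n, a protease inhibitor and the most abundant of the 4, had FPKM values of 40.4, 67.4 and 73.0 in CT, 65.3, 69.4 and 36.9 in WT_ST and 68.1, 66.3 and 35.3 in KO_ST. The mice of each group were split, with 1 mouse of each group (CT replicate 1, WT_ST replicate 3 and KO_ST replicate 3) between 35.3 and 40.4 and the other 6 between 65.3 and 73.0, so the groups did not differ beyond their spread (log2 differences -0.09 and -0.10, SE 0.288 and 0.300). Serpina3n has close paralogs, and reads may be split between them. The other 10 Serpina3 genes measured summed to at most 3.52 FPKM in any mouse, with Serpina3m at 2.42 in WT_ST replicate 1 and 2.20 in KO_ST replicate 1.

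Lcn2 had FPKM values of 0.224, 0.590 and 4.53 in CT, 0.0926, 0 and 0.289 in WT_ST and 0, 0 and 0.802 in KO_ST. CT replicate 3, with 194 reads, held more than the other 8 mice together, and without it the gene would not have had the 30 reads on average that the test asked for. WT_ST replicate 2 and KO_ST replicates 1 and 2 had 0 reads, a count that allows up to 3 reads per library. Lcn2 was not called by limma with all mice and a pseudocount of 1. It was called lower in WT_ST by edgeR and DESeq2, and by limma with the pseudocount of 0.1, with the replicate block and without CT replicate 1, and lower in KO_ST against CT with the replicate block. When CT replicate 3 was left out it was not called.

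**Figure D3:**
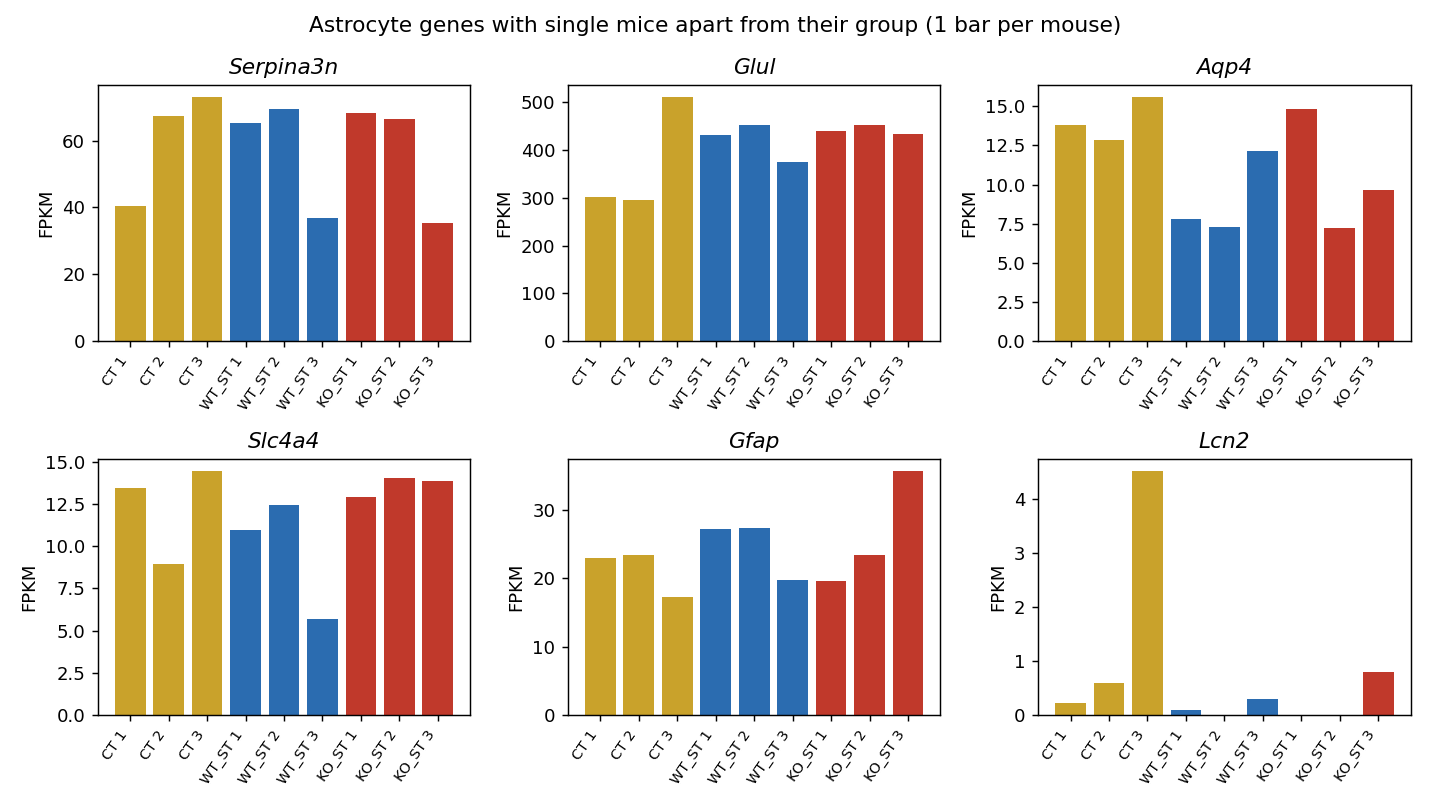
FPKM of 6 astrocyte genes with 1 bar per mouse, coloured by group. Serpina3n is low in 1 mouse of each group, Glul and Lcn2 are highest in CT replicate 3, and Gfap is highest in KO_ST replicate 3. Aqp4 varies within WT_ST and KO_ST, and Slc4a4 within CT and WT_ST.

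In KO_ST against CT, 2 of the 31 genes were called, both lower, namely Clu and Plpp3 (3.56% of all genes were called, 2.03% lower). The sign was below 0 for 20 genes, with a median log2 difference of -0.10, against a median of 0.0024 over all genes. For 6 genes the groups did not overlap, with KO_ST wholly below CT for Slc25a18, Slc7a10, Mlc1, Plpp3 and Clu and wholly above for S100b, where 15.8% of all genes did not overlap and 7.88% lay wholly lower. None of the 31 passed the adjusted threshold in limma, while 0.0626% of all genes did, and 7 had an unadjusted p under 0.05, as did 9.46% of all genes. By edgeR and by DESeq2 none passed the adjusted threshold either, and 1 was called by each, where edgeR called 4.63% and DESeq2 5.14% of all genes. The CT mice are shared with the comparison of WT_ST, so the values of the 2 comparisons are not independent of each other. Without KO_ST replicate 3, KO_ST lay wholly below CT for 13 genes (against 13.6% of all genes) and 5 were called (against 4.57% of all genes). Without CT replicate 1 it lay wholly below for 10 genes (against 14.4% of all genes), and 5 were called (against 5.14% of all genes). Without CT replicate 2 or KO_ST replicate 2, 1 gene was called (against 2.86% and 3.26% of all genes).

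KO_ST against WT_ST, the comparison of genotype under stress, gave no called astrocyte gene, with 4 at an unadjusted p under 0.05 (against 5.82% of all genes) and none called by edgeR or DESeq2, while 2.0% of all genes were called. A log2 difference above 0 was found for 25 of the 31 genes, with a median of 0.052 against -0.0015 over all genes. Without KO_ST replicate 3 that count was 16 of 31 (median 0.0090), without WT_ST replicate 3 it was 18 (median 0.033), and without each of the other 4 mice it was 25 to 29. KO_ST lay wholly above WT_ST for 3 genes, Slc4a4, Gjb6 and Fgfr3, and wholly below for none, where 11.0% of all genes did not overlap and 4.99% lay wholly higher. The genes wholly above numbered 8 without WT_ST replicate 2 (against 8.01% of all genes), 8 without KO_ST replicate 1 (against 9.28%) and 6 without KO_ST replicate 2 (against 10.1%). The log2 difference was 0.52 for Slc4a4 (SE 0.241, limma adjusted p = 0.869), 0.23 for Gjb6 (SE 0.0561, limma adjusted p = 0.665) and 0.23 for Fgfr3 (SE 0.0649, limma adjusted p = 0.701). None of the 31 passed the adjusted threshold, which 0.153% of all genes did. Of the genes called in WT_ST against CT, the log2 differences of KO_ST against WT_ST were 0.04 for Slc1a3 (SE 0.0594), 0.05 for Mfge8 (SE 0.0770) and -0.02 for Plpp3 (SE 0.0609). For Id3 it was 0.12 (SE 0.0597) and for Aqp4 0.19 (SE 0.256), the widest error of the 5.

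Over the 3 groups at once, limma's F test gave 11 of the 31 genes an unadjusted p under 0.05, as it did 9.13% of the 14370 genes tested. None passed an adjusted p of 0.05, which 0.111% of all genes did, and the lowest adjusted p was 0.230, for Clu. By DESeq2's test over the 3 groups, Clu and Slc1a3 passed, as did 1.45% of all genes.

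**Figure D4:**
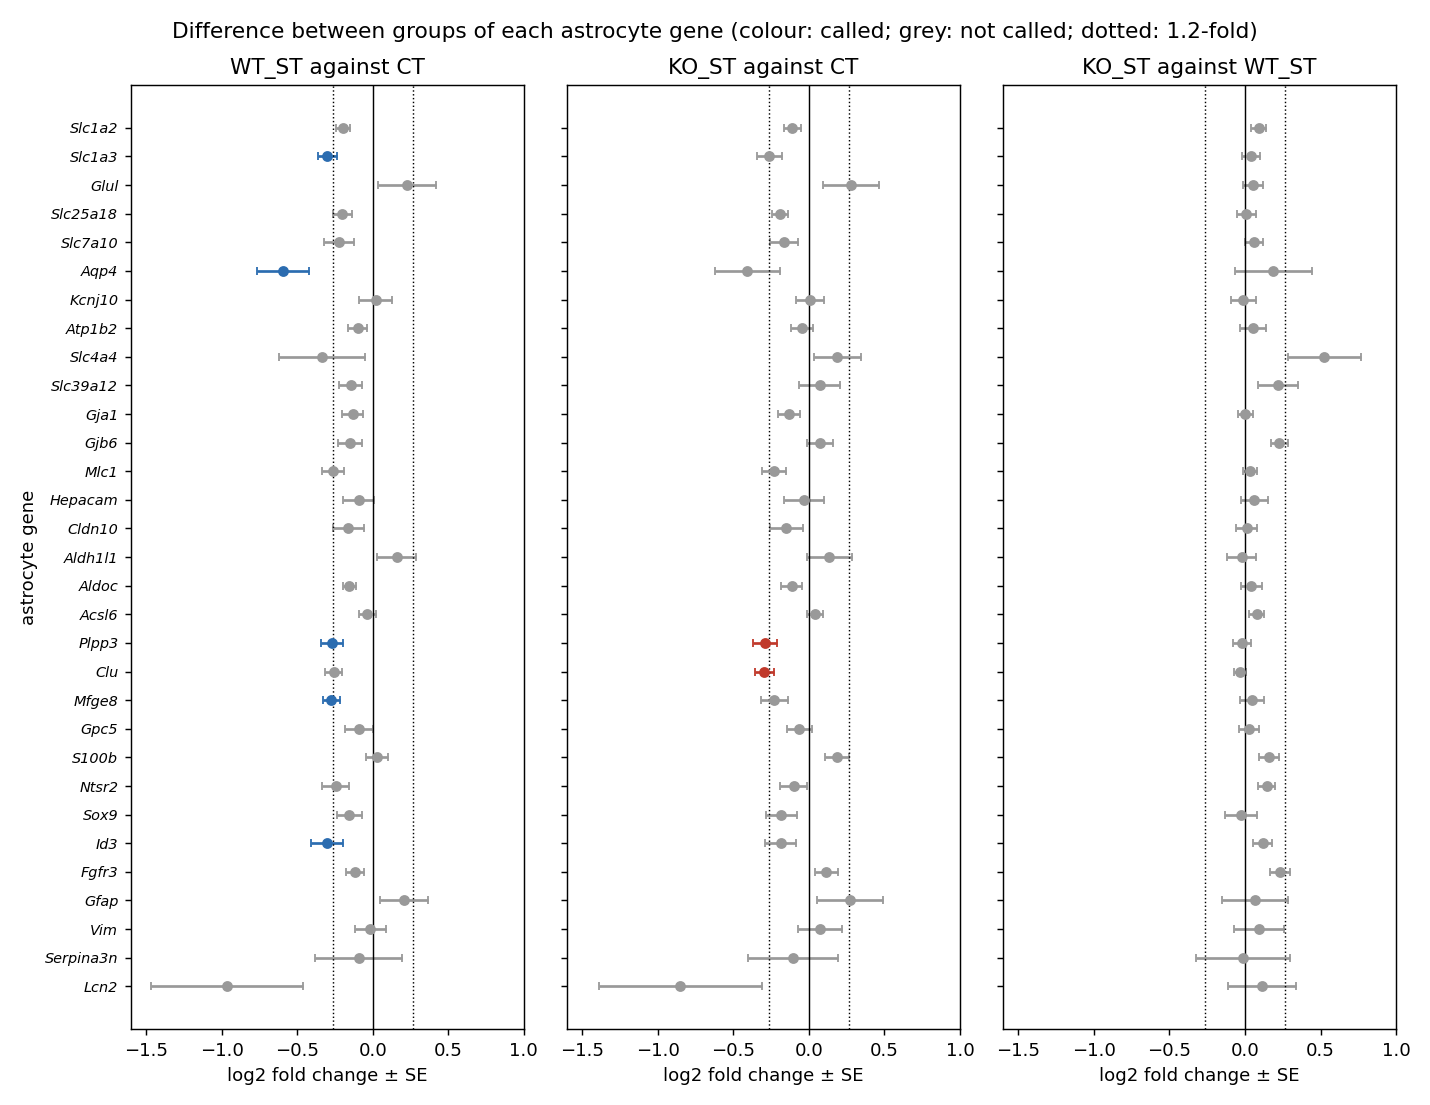
Log2 fold change of each astrocyte gene with its SE in the 3 comparisons, coloured where called and grey where not, with dotted lines at a fold change of 1.2. In WT_ST against CT 26 of 31 points lie left of 0 and 5 are called, in KO_ST against CT 2 are called, and in KO_ST against WT_ST none is.

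Single mice shaped these values. On the quantile-normalized scale, CT replicate 3 held the highest level of the 9 mice for 16 of the 31 genes, and KO_ST replicate 3 for 8, while no WT_ST mouse was highest for any. WT_ST replicate 3 was the lowest for 7 genes, and WT_ST replicate 1 and KO_ST replicate 1 for 6 each. The median deviation of the 31 genes from their mean over the 9 mice was 0.20 (log2) in CT replicate 3, -0.13 in WT_ST replicate 3 and 0.075 in KO_ST replicate 3, where over all genes tested it was -0.0062, 0.0045 and 0.00024. Without CT replicate 3, WT_ST lay wholly below CT still for 16 genes (against 12.3% of all genes), and the 5 called genes (against 3.79% of all genes) were then Aqp4, Clu and Id3 lower and Glul and Aldh1l1 higher. CT replicate 3 also had the highest summed FPKM of microglia markers, 252, and of oligodendrocyte markers, 977 against 510 and 542 in the other CT mice, and the part of these in its astrocyte genes was not tested.

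A second list of astrocyte genes that the 31 do not include was examined in the same fits, with 67 genes analysed. Of these, 12 were called in WT_ST against CT, all lower, 51 had a log2 difference below 0 (median -0.10) and 22 lay wholly lower, where 2.47% of all genes were called, 1.32% called lower and 6.46% wholly lower. Among the called genes, the largest differences were those of Apoe, the lipid carrier of the brain (-0.55, SE 0.178), and Fabp7, a fatty acid binding protein (-0.54, SE 0.105). Hes5, a transcription factor downstream of Notch, was at -0.49 (SE 0.135), Cst3, the protease inhibitor cystatin C, at -0.41 (SE 0.0527), and Pla2g7, an enzyme that inactivates platelet-activating factor, at -0.37 (SE 0.109).

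Cst3 came closest to the adjusted threshold of these 5, with a limma adjusted p of 0.169. Its FPKM was 882, 889 and 890.3 in CT, 674, 683 and 688 in WT_ST and 661, 712 and 744 in KO_ST, with all stressed mice far below the CT mice, which were close to each other. Cst3 and Apoe are also abundant in microglia. Microglia markers summed to 200 to 252 FPKM in CT, 159 to 183 in WT_ST and 92.6, 142 and 199 in KO_ST. In KO_ST replicate 3, with 199, the sum was thus close to that of the lowest CT mouse. The part of microglia in the lower Cst3 and Apoe was not tested. Fabp7 had FPKM values of 21.9, 27.8 and 24.5 in CT, 18.6, 16.5 and 14.9 in WT_ST and 15.5, 13.4 and 17.3 in KO_ST, and all 6 stressed mice lay below the CT mice.

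In KO_ST against CT, 7 of the 67 were called, 6 of them lower (against 3.56% and 2.03% of all genes), and the 5 of these 7 with the largest differences were Fabp7 (-0.63, SE 0.110), Pla2g7 (-0.56, SE 0.236), Hes5 (-0.55, SE 0.124), Tnc (0.42, SE 0.0758) and Cst3 (-0.37, SE 0.0646). Tnc, an extracellular matrix protein, was the 1 called higher. In KO_ST against WT_ST 4 were called (against 2.0% of all genes), with Nfix, a nuclear factor I gene, lower (-0.58, SE 0.155) and Agt (angiotensinogen, 0.34, SE 0.128), Hgf (a growth factor, 0.28, SE 0.0726) and Tnc (0.27, SE 0.0735) higher. Nfix had FPKM values of 35.35, 39.3 and 22.1 in CT, 38.4, 37.9 and 36.2 in WT_ST and 21.3, 32.35 and 21.1 in KO_ST. KO_ST overlapped CT for Nfix, at a log2 difference of -0.33 (SE 0.245) that was not called. Agt was low, between 0.853 and 2.08 FPKM over the 9 mice. None of the 67 passed the adjusted threshold of limma in any comparison.

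Of 35 further genes of the reactive state, 27 were expressed highly enough to be tested. In WT_ST against CT 1 of the 27 was called, near the 2.47% of all genes, namely Ptgs2 (cyclooxygenase, also a gene of active neurons), higher at 0.28 (SE 0.113). In KO_ST against CT 2 of the 27 were called, beside 3.56% of all genes. Srgn, a proteoglycan core protein of immune and vascular cells, was called lower at -0.42 (SE 0.104), and so was Nes, the filament protein nestin, at -0.28 (SE 0.0907). None was called in KO_ST against WT_ST, and the median log2 differences of the list were -0.0040, -0.010 and -0.033 in these 3 comparisons.

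Markers of other cells were measured beside the astrocyte genes in the same fits. Microglia markers were lower in KO_ST against CT as well, with 7 of 10 called (against 3.56% of all genes, median of the markers -0.66) and summed FPKM of 92.6 to 199, and the 5 with the largest differences were Cx3cr1 (-0.97), Csf1r (-0.80), Tmem119 (-0.79), C1qa (-0.72) and P2ry12 (-0.68). In WT_ST against CT the 4 with the largest differences were Cx3cr1 (-0.48), Tmem119 (-0.40), Csf1r (-0.40) and C1qa (-0.36), and in KO_ST against WT_ST only P2ry12 was called (-0.42). In KO_ST the neuron markers summed to 4113 to 4328 FPKM. Oligodendrocyte markers summed to 510 to 977 FPKM in CT, 552 to 873 in WT_ST and 591 to 766 in KO_ST. Their log2 difference was above 0 for all 10 in WT_ST against CT (median 0.24) and for 8 in KO_ST against CT (median 0.068). In KO_ST against WT_ST it was below 0 for all 10 (median -0.15), and the groups overlapped for all 10 in every comparison. None of the neuron or oligodendrocyte markers was called in any comparison.

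Of 6 oligodendrocyte precursor markers, 5 had a log2 difference below 0 in WT_ST against CT (median -0.17), 0 were called, and their part in the astrocyte genes was not tested. Cldn5 (-0.32) and Vtn (-0.30) of 12 endothelial and mural markers were called lower in WT_ST (16.67% of the list, beside 2.47% of all genes) and Cldn5 (-0.39) in KO_ST against CT. Gpr17 (-0.40) of the oligodendrocyte precursor markers and Col1a2 (-0.34) of 10 meningeal markers were called lower in KO_ST against CT. In that comparison 3.56% of all genes were called and 2.03% called lower. Of 6 ependymal markers 2 had reads enough to be tested. Foxj1, 1 of these, was called higher in WT_ST (0.47) and KO_ST (0.40) against CT, at an FPKM under 1 in every mouse. The ependymal markers Ccdc153, Tmem212 and Ttr were at 0 in at least 1 mouse. The whole list of 31 astrocyte genes summed to 2115 to 2547 FPKM in CT, 1990 to 2201 in WT_ST and 2122 to 2290 in KO_ST.

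**Figure D5:**
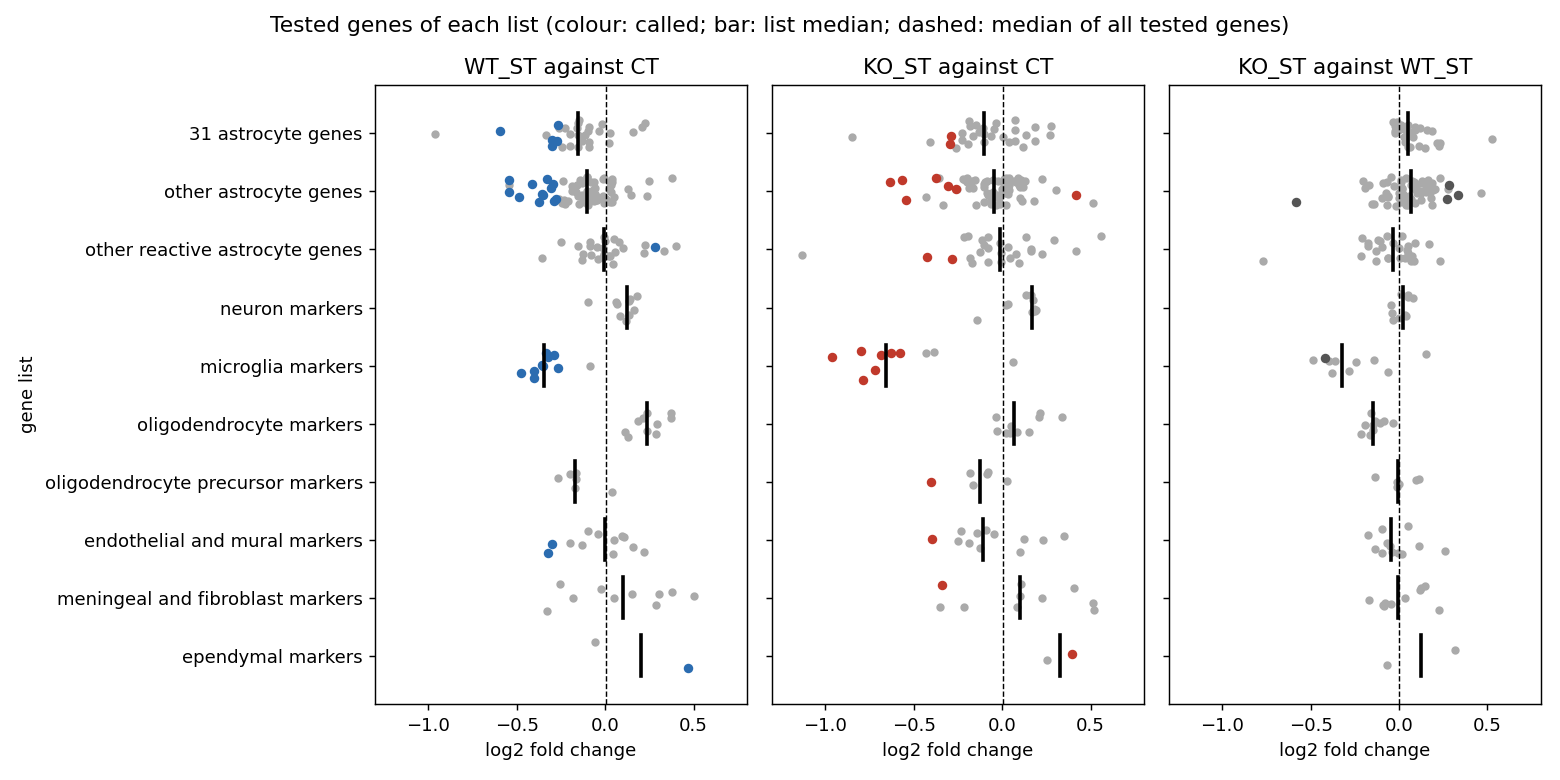
Log2 fold change of every tested gene of the 31 astrocyte genes, of the 2 other astrocyte lists and of the marker lists in the 3 comparisons, with called genes coloured, a bar at each list's median and a dashed line at the median of all tested genes. In WT_ST against CT the bars of the 31 astrocyte genes, the other astrocyte genes, the microglia markers and the oligodendrocyte precursor markers lie at medians of -0.15, -0.10, -0.34 and -0.17, left of the dashed line, and those of the other reactive genes and the endothelial and mural markers lie close to it. The bars of the neuron, oligodendrocyte, meningeal and ependymal markers lie right of it, at 0.12, 0.24, 0.10 and 0.20.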

How the data were processed

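RNA from the mPFC of 9 mice was measured, 3 each of CT, WT_ST and KO_ST, with groups and replicate numbers from the sample labels. The methods give an age of 8 weeks and the labels 11. The authors prepared stranded mRNA libraries and, per the labels, used HISAT2 2.1.0, Bowtie2 2.3.4.1 and StringTie 1.3.4d on mm10. Whether counting used strand is not given in the sources used here. The authors deposited raw read counts of 24532 genes. FPKM values, likewise deposited for each mouse, are corrected for length and depth within a mouse and are not quantile normalized.

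A pseudocount of 1 was added to FPKM before log2 transformation, the 9 mice were quantile normalized together, and genes with a mean of at least 30 reads (14370) were tested. After the methods of the study, 2 groups were compared at a time, here with limma 3.58.1 (mean-variance trend) in R 4.3.3 and Benjamini-Hochberg adjustment. A gene counted as called when its unadjusted p was under 0.05 and its fold change above 1.2. Alternatives used a pseudocount of 0.1, no quantile normalization, other filters, an unmoderated test, edgeR 4.0.16 and DESeq2 1.42.0 on the counts, all 9 mice in 1 fit, the replicate number as a block, and leaving out each mouse. Tests were run on simulated data first. Depth was 43778471 to 61150128 reads per mouse, and intervals and floors from counts cover counting error only. No libraries within a group agreed within sampling noise (lowest chi-square per degree of freedom 18.7). Same-numbered mice of different groups deviated from their group means with a mean correlation of -0.010 (range -0.26 to 0.23), so the numbers do not pair the mice.

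The astrocyte genes and all other lists were chosen with earlier results of these data known. Values in every mouse are given for astrocyte genes that were called or without overlap in any comparison and for the most abundant of each role, and of other lists all called genes are named, or the 5 with the largest differences where more were called, except 1 marker gene whose own value is not reported here. Cst3, Fabp7, Nfix, Gfap and Lcn2 were given in every mouse, Tnc and Agt by range, and Kcnj10 and the other uncalled genes in part, after their values were seen. Of the second astrocyte list, 1 gene was not analysed here. Gene positions and promoters come from RefSeq (GRCm38.p6). Python 3.11.15 with matplotlib 3.10.9 drew the figures.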

Additional observations from a re-analysis of the deposited data

How the results depend on the processing

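The number of astrocyte genes called in WT_ST against CT was 5, became 3 with the unmoderated test, and ranged from 3 (without WT_ST replicate 1) to 9 (without CT replicate 1) when 1 mouse was left out. Slc1a3 and Aqp4 were called in 14 of 15 alternative settings, Mfge8 in 13, Plpp3 in 12 and Id3 in 11. In KO_ST against CT it was 2, became 1 with edgeR and 1 with DESeq2, and ranged from 1 to 5 when 1 mouse was left out. In KO_ST against WT_ST it was 0 and ranged from 0 to 1, with Slc4a4 called without WT_ST replicate 2, Fgfr3 without KO_ST replicate 1 and Slc39a12 without KO_ST replicate 2. By the F test 0 genes passed the adjusted threshold with limma and 2 with DESeq2. With the replicate block, 6, 3 and 0 genes were called in the 3 comparisons, against 2.78%, 3.91% and 1.94% of all genes, and the block, which shares only a number, changed none of these 3 counts by more than 1.5 times.

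Leaving out each mouse was added for the counts without overlap after the data were seen. The number of genes with every WT_ST mouse below every CT mouse was 16 (against 6.46% of all genes) and ranged from 16 to 21 (13.5% without CT replicate 1), with every KO_ST mouse below every CT mouse it was 5 (7.88%) and ranged from 5 to 13 (13.6% without KO_ST replicate 3), and with every KO_ST mouse above every WT_ST mouse it was 3 (4.99%) and ranged from 3 to 8 (8.01% without WT_ST replicate 2 and 9.28% without KO_ST replicate 1). Fewer mice make separation more frequent by construction, over all genes too. The cause of the other changes was not tested. No called gene changed direction under any alternative, and the median log2 difference of all genes lay between -0.018 and 0.0051 in every setting. Over all genes, 355, 512 and 287 were called in WT_ST against CT, KO_ST against CT and KO_ST against WT_ST, and 164, 248 and 138 with the unmoderated test. In WT_ST against CT it was 552 with DESeq2, 535 with edgeR, 544 with the pseudocount of 0.1 and 544 without CT replicate 3, and in KO_ST against WT_ST 445 with that pseudocount and 477 without KO_ST replicate 3. An adjusted p under 0.05 was reached by 5, 9 and 22 genes in the same order with limma, 0, 2 and 4 with the replicate block, 0, 2 and 5 with the unmoderated test and 72, 113 and 76 with DESeq2. Of these limma counts, that of WT_ST against CT was 17 without CT replicate 3, 9 without CT replicate 1, 3 without WT_ST replicate 2, 2 without WT_ST replicate 1, 2 with either other filter and 3 with all 9 mice in 1 fit, and that of KO_ST against WT_ST was 11 without WT_ST replicate 2 and 13 without a filter. With 3 mice a group, Slc1a3, Plpp3, Mfge8 and Id3 each lost their call in WT_ST against CT when certain single mice were left out. CT replicate 3 was such a mouse for Slc1a3, Plpp3 and Mfge8, and not for Id3. Lcn2 averaged 31.8 reads over the 9 mice, with 194 in CT replicate 3 and 0 to 36 in the others.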
